A study of Mus musculus with 42 samples.

Results

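The genes described here are 10 of the 37907 Ensembl genes of a hypothalamic RNA-seq table. They encode receptors through which feeding signals act, and an accessory protein of such receptors: the melanocortin receptors Mc3r and Mc4r, the accessory protein Mrap2, the ghrelin receptor Ghsr, the neuropeptide Y receptors Npy1r, Npy2r and Npy5r, the GLP-1 receptor Glp1r, the serotonin 2C receptor Htr2c and the melanin-concentrating hormone receptor Mchr1. They were chosen by name, and all 10 were in the table. Expression was measured in 42 libraries from adult wild-type male C57/BL6 mice with no transgene or other allele. They had free access to food (fed) or had gone without it for 24 hours (fasted). Tissue of the arcuate nucleus (ARC), ventromedial hypothalamus (VMH), dorsomedial hypothalamus (DMH) and paraventricular nucleus (PVN) was cut by laser from brain sections. The ARC was represented by 5 fed and 5 fasted libraries, the VMH by 6 and 6, the DMH by 5 and 4, and the PVN by 6 and 5. The study captured the 4 nuclei from the sections of a brain, and which libraries share a mouse is not labelled, so the p-values between nuclei do not account for that sharing. The study's methods call the libraries of a group biological replicates; the labels number them without naming mice, so the p-values measure the spread between these libraries.

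All of these receptors except the accessory protein are G protein-coupled receptors. Peptides made from Pomc in the ARC stimulate the melanocortin receptors and lower food intake, and Agrp, released by the neurons that also make neuropeptide Y, antagonizes them. Neuropeptide Y, melanin-concentrating hormone and the stomach hormone ghrelin promote feeding, whereas GLP-1 and serotonin acting at the 2C receptor reduce it.

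Values are RPKM, reads scaled to exon length and to the depth of the library, which puts genes on a common scale. The RNA was amplified, and differences between genes in how well they amplify were not tested, so levels of different genes compare only roughly. The estimated depth was 1.33 to 13.2 M reads a library. No value in the table is 0, because a count was added before deposit; a member with no reads is expected at 0.117 RPKM (Htr2c) to 0.5 RPKM (Mchr1). By the same estimate Mrap2, Npy1r, Npy2r, Glp1r and Htr2c had more than 10 reads in each library. Mc4r and Npy5r had fewer than 10 reads in 16 libraries each, Ghsr in 8, Mc3r in 7 and Mchr1 in 1. All 12 marker genes of the nuclei were highest, on average, in the nucleus they mark, with Pomc at 441 RPKM in the ARC and at most 18.7 elsewhere; the margin was smallest for Ppp1r17, which was 1.56 times as high in the DMH as in the PVN. The other DMH markers, Hcrt and Pmch, are best known from the adjoining lateral area, and whether the DMH libraries held tissue of that area was not tested. Because the tissue is bulk, fewer cells of a type and less RNA per cell cannot be told apart in any of these values.

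The exons of none of the 10 genes overlap those of another annotated gene. Npy1r shared 2.84% and Glp1r 0.207% of their 50-base stretches with transcripts of other genes, and the other members none. Npy5r (chromosome 8, 66679965 to 66688128, minus strand) and Npy1r (chromosome 8, 66697192 to 66706792, plus strand) are neighbours on GRCm38 that point away from each other, with 9063 bases between them. The sequences before their starts are shown because their levels were the most alike of any pair among the 10 (Pearson r = 0.84 over 42 libraries, given as a description); capitals mark a T-box half-site and an E-box. Each run is the 250 bases before the RefSeq start on GRCm38.p6, read in the direction of the gene. These starts differ from those of the GENCODE spans given above: the RefSeq start of Npy1r lies inside its span, so that most of its run, the marked letters included, falls within the annotated gene, and the run of Npy5r overlaps the end of its span.
Npy1r, chr8:66697172-66697421, plus strand: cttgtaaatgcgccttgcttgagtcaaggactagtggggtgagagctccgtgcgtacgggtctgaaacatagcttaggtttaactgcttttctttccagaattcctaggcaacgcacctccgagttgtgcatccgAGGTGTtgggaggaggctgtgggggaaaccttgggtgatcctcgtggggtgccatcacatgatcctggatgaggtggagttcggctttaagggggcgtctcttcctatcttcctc
Npy5r, chr8:66688095-66688344, minus strand: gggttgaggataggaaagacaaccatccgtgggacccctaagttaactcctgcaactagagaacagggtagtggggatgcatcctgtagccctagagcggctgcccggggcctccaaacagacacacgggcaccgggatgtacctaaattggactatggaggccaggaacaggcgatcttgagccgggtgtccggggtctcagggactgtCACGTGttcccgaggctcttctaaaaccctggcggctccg
The T-box half-site AGGTGT of Npy1r begins 115 bases before the start and the E-box CACGTG of Npy5r 40 bases before it. The T-box letters were chosen after the T-box factor Tbx3 was seen among the genes that resemble the members. On either strand, AGGTGT was found in 11.8% and CACGTG in 6.02% of 32851 promoters of this length. Promoters of 9 of the 10 members were in the table. Mchr1 also held CACGTG, and none of the 9 held the CRE half-site TGACG (17.8% of promoters), the forkhead letters GTAAACA (3.17%), the STAT letters TTCNNNGAA (7.02%) or the glucocorticoid response core ACANNNTGT (5.84%).

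**Figure D1:**
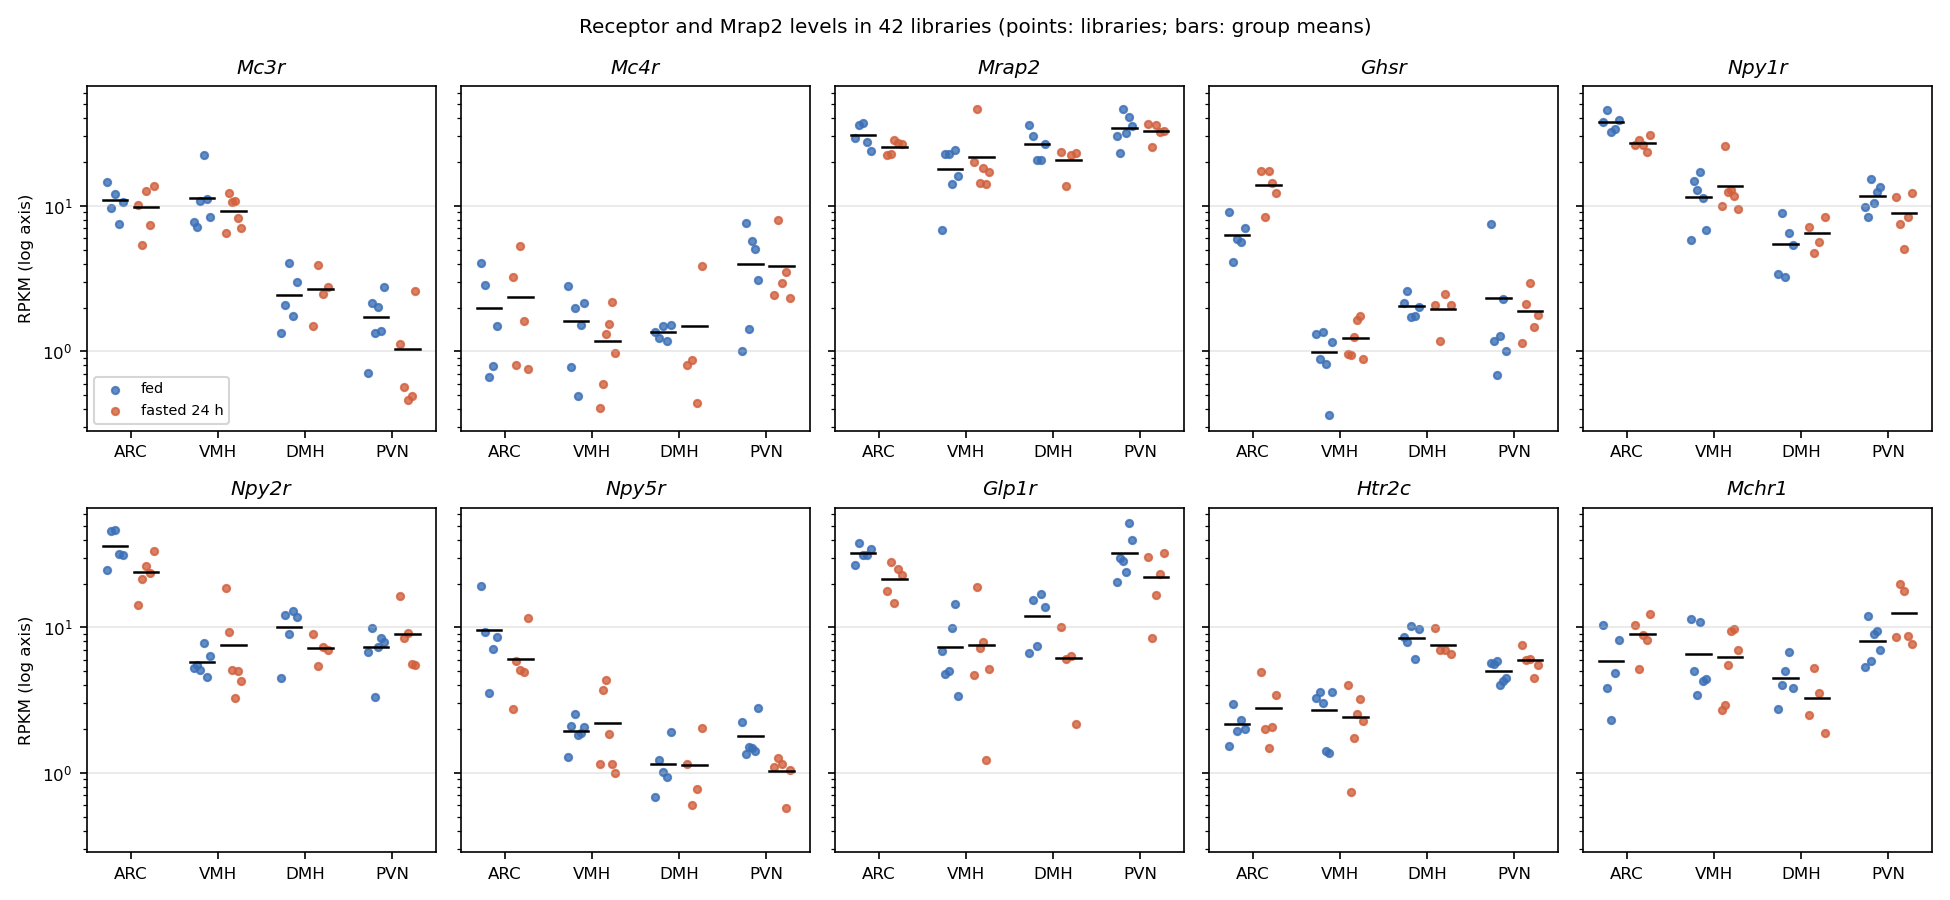
RPKM on a log axis of each of the 10 genes in the 42 libraries, by nucleus; points are libraries, blue fed and orange fasted, and black bars are group means. Npy1r, Npy2r, Npy5r and Ghsr are highest in the ARC, Mc3r in the ARC and VMH, Glp1r in the ARC and PVN, and Htr2c in the DMH and PVN, whereas Mrap2 is between 6.8 and 46.6 RPKM in every library.

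Most of the receptors differed between nuclei, in fed and in fasted mice. Tested with limma over 33579 genes, 8 of the 10 members differed between the fed nuclei at an adjusted p under 0.1, against 12.4% of all genes tested. In the fasted nuclei it was again 8 of 10, against 11.9%. The genes tested include short genes without reads, kept through the added count, so the shares given here are not of expressed genes alone. Mc4r passed in neither state, Mchr1 passed in fasted and not in fed mice, and Mrap2 in fed and not in fasted mice. Of the 60 differences between pairs of nuclei (10 genes, 6 pairs), 28 passed in fed and 28 in fasted mice. These had 25 in common, and the 28 fed differences had the same sign in fasted mice. In fed mice 6 members differed between ARC and VMH (7.9% of all genes tested), 7 between ARC and DMH (2.79%), 6 between ARC and PVN (4.13%), 3 between VMH and DMH (5.24%), 4 between VMH and PVN (9.84%) and 2 between DMH and PVN (3.42%). In fasted mice the counts were 5 (8.91%), 8 (3.21%), 6 (4.19%), 3 (3.94%), 4 (9.24%) and 2 (3.0%) in the same order of pairs. The ARC was the higher side in all of these ARC differences other than that of Htr2c, which was the lower there. Of the 28 calls, 25 in fed and 23 in fasted mice held when any library of the 2 nuclei was left out, and the others are named below.

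**Figure D2:**
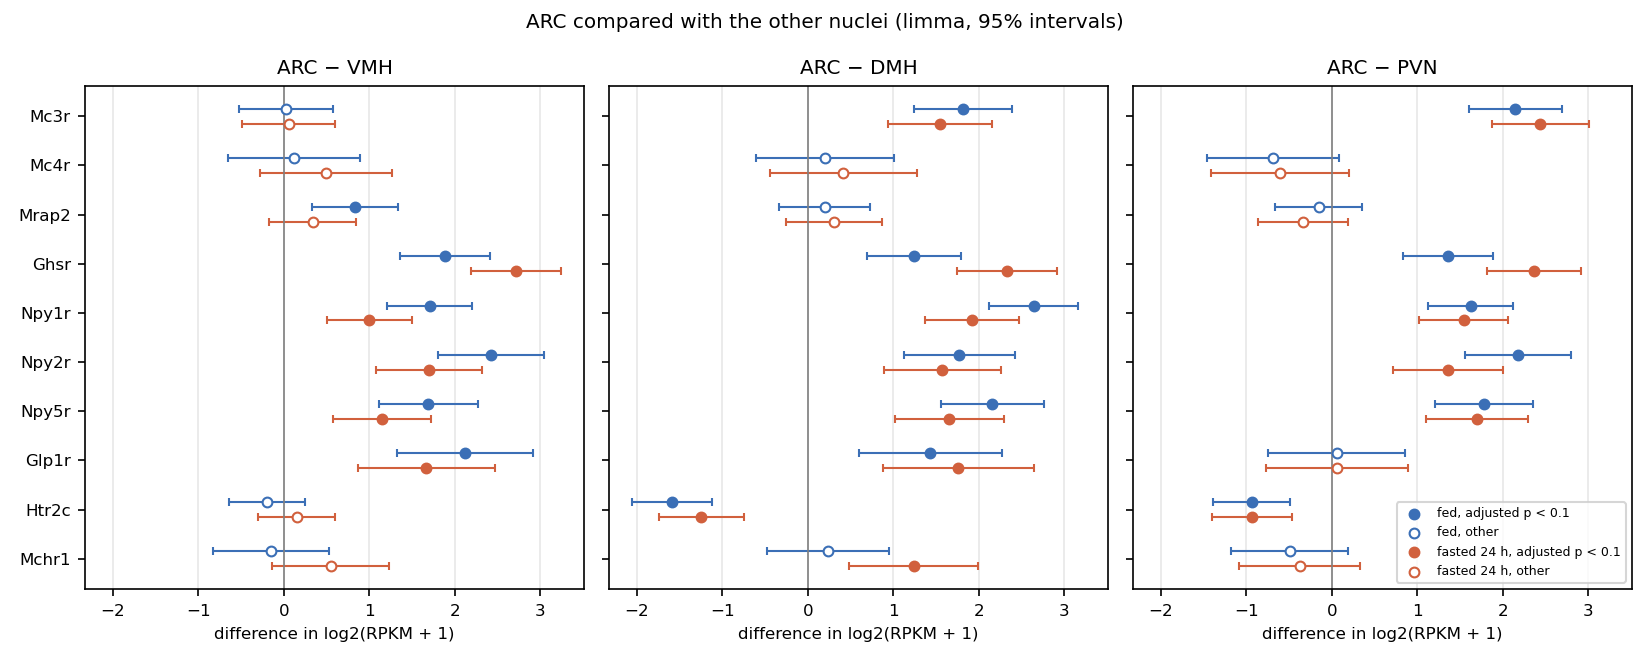
Difference in log2(RPKM + 1) between the ARC and each other nucleus, with 95% intervals from limma, for fed (blue) and fasted (orange) libraries; filled points have an adjusted p under 0.1. Npy1r, Npy2r, Npy5r and Ghsr lie right of 0 in the 3 panels in both states, and Htr2c lies left of 0 against the DMH and the PVN.

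Among the melanocortin receptors, Mc3r, which is expressed on Pomc and Agrp neurons among others, was an ARC and VMH transcript. In the 5 fed ARC libraries it was at 14.7, 9.65, 12.2, 7.49 and 10.6 RPKM, and in the 6 fed VMH libraries it ran from 7.2 through a median of 9.63 to 22.4 RPKM. In the fed DMH it was at 1.34, 2.08, 4.05, 1.76 and 2.98 RPKM, and in the fed PVN between 0.713 and 2.76 with a median of 1.7 RPKM. No DMH or PVN library reached the lowest ARC or VMH library. The ARC exceeded the PVN by 2.14 ± 0.27 (SE) on the log2(RPKM + 1) scale (limma adjusted p = 5.72e-07) and the VMH exceeded it by 2.12 ± 0.26 (adjusted p = 1.31e-07). ARC and VMH differed by 0.02 ± 0.27, with a 95% interval of -0.52 to 0.57. Means of the fasted groups were 9.88 RPKM (ARC), 9.23 (VMH), 2.67 (DMH) and 1.04 (PVN). The lowest fasted PVN libraries, at 0.464, 0.496 and 0.565 RPKM, were close to the 0.417 RPKM expected of this gene with no reads.

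Mc4r, a melanocortin receptor whose loss causes obesity, was the lowest member in both ARC groups, with a mean of 1.98 ± 1.45 RPKM (SD, n = 5) in fed and 2.35 ± 1.94 in fasted mice. Its highest mean was in the PVN, at 4.0 ± 2.6 RPKM (n = 6) in fed and 3.85 ± 2.37 (n = 5) in fasted mice. The fed PVN libraries were spread from 1.01 to 7.61 RPKM and overlapped the fed ARC libraries (0.668 to 4.05). The test over the 4 nuclei did not pass in fed (adjusted p = 0.354) or in fasted mice (adjusted p = 0.199). The fasted VMH (0.411 to 2.19 RPKM) and fasted PVN (2.32 to 8.01 RPKM) did not overlap, a difference of -1.11 ± 0.38 with an adjusted p of 0.0757. That call was lost when VMH-Fast library 1, 2 or 6 or PVN-Fast library 2 or 4 was left out (adjusted p from 0.113 to 0.255), in a fit on the fasted libraries alone (0.126) and with the replicate block (0.127). With array weights the test over the fed nuclei passed (0.0828). At a median of 13.3 estimated reads a library, Mc4r is among the least precisely measured of the 10.

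Mrap2, which binds Mc4r and other receptors and changes their signalling, was expressed at 13.7 RPKM or more in each ARC, DMH and PVN library. Its fed means were 34.5 ± 8.27 RPKM (PVN), 30.6 ± 5.59 (ARC), 26.8 ± 6.61 (DMH) and 17.8 ± 6.71 (VMH). It was lower in the fed VMH than in the PVN (-0.99 ± 0.24, adjusted p = 0.00497) and the ARC (0.83 ± 0.25 higher in the ARC, adjusted p = 0.0365), although the libraries overlapped in both cases. The difference from the ARC was lost without ARC-Fed library 3 (adjusted p = 0.106) and without VMH-Fed library 1 (0.133). Among fasted nuclei it did not pass the threshold (adjusted p = 0.249). With VMH-Fast library 2, which was at 46.6 RPKM, left out, it passed at 0.0241, and with array weights at 0.0109.

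In fed mice the neuropeptide Y receptors had the highest ratios, among the 10, of the ARC mean to that of the next nucleus. Npy1r, a receptor through which neuropeptide Y stimulates feeding, was at 37.8, 45.6, 32.0, 33.7 and 38.8 RPKM in the fed ARC. Its range was 5.84 to 17.1 RPKM (median 12.1) in the fed VMH, 8.41 to 15.2 (median 11.4) in the fed PVN, and 3.38, 8.87, 3.22, 6.54 and 5.36 in the fed DMH. Every fed ARC library was above every fed library of the other nuclei, and the ARC mean was 3.23 times the next highest. The log2 difference was 2.64 ± 0.26 from the DMH (adjusted p = 6.11e-09), 1.70 ± 0.24 from the VMH (4.64e-06) and 1.63 ± 0.24 from the PVN (1.86e-05). Npy1r was also higher in the VMH than in the DMH, by 0.94 ± 0.24 in fed (adjusted p = 0.0187) and 0.92 ± 0.26 in fasted mice (0.0441). The fasted VMH to DMH call was lost without DMH-Fast library 2 (adjusted p = 0.161) or 3 (0.103), or VMH-Fast library 2 (0.128). It was also higher in the fed PVN than in the fed DMH (DMH minus PVN -1.01 ± 0.24, adjusted p = 0.0129), where the libraries overlapped. The fed VMH and PVN differed by -0.08, with a 95% interval of -0.55 to 0.4.

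Npy2r, a largely presynaptic receptor on which peptide YY also acts, was at 24.6, 45.6, 46.7, 31.7 and 31.6 RPKM in the fed ARC. The other fed nuclei had means of 10.1 (DMH), 7.28 (PVN) and 5.79 RPKM (VMH), and their highest library was at 12.97 RPKM. The ARC was higher by 2.42 ± 0.30 than the VMH (adjusted p = 3.63e-07), by 2.18 ± 0.30 than the PVN (4.80e-06) and by 1.77 ± 0.32 than the DMH (0.000614). VMH, DMH and PVN did not pass a test against each other in either state. Npy5r, the other receptor tied to feeding by neuropeptide Y, was lower and also highest in the ARC: 19.4, 9.34, 3.56, 7.15 and 8.55 RPKM in the fed ARC, against means of 1.95 (VMH), 1.79 (PVN) and 1.15 RPKM (DMH). Its fed ARC mean was 4.92 times the next highest, and the differences from the ARC were 1.69 to 2.16 on the log2 scale with SEs of 0.28 to 0.30. The median ratio of Npy1r to Npy5r in a library was 4.71 in the fed and 4.82 in the fasted ARC, and its group medians elsewhere lay between 4.98 and 10.4. Both values hold the added count, which weighs more in Npy5r outside the ARC. Without reads Npy5r is expected at 0.429 RPKM. In the fasted PVN, which had the highest median ratio, Npy5r was at 0.571 to 1.255 RPKM on 2.24 to 10.5 estimated reads.

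Ghsr, the growth hormone secretagogue receptor that ghrelin activates, was the fourth receptor highest in the ARC. Fed ARC libraries were at 9.08, 4.08, 5.92, 5.66 and 7.01 RPKM. Fed DMH libraries were at 2.15, 2.6, 1.73, 1.76 and 2.0 RPKM, and fed VMH libraries ran from 0.364 through a median of 1.01 to 1.36 RPKM. Fed PVN libraries had a median of 1.23 RPKM and ran from 0.685 to 2.29, apart from PVN-Fed library 1 at 7.54. That library was the only one outside the ARC above 3 RPKM, and its Agrp level of 12.1 RPKM was also the highest of the fed PVN, where the others were between 1.97 and 5.91. The other ARC markers, Pomc and Npy, were not high in that library. Pomc was at 5.25 RPKM (fed PVN 4.75 to 14.28) and Npy at 5.98 RPKM (4.80 to 10.97). The summed ARC markers of that library (23.3 RPKM) lay within the range of the fed PVN, 13.7 to 28.3 RPKM. The part of tissue outside the nucleus in this value was not tested. Without it the fed PVN mean was 1.29 ± 0.60 RPKM (n = 5) in place of 2.33. The ARC exceeded the VMH by 1.88 ± 0.26 (adjusted p = 2.21e-06), the PVN by 1.36 ± 0.26 (0.000684) and the DMH by 1.24 ± 0.27 (0.00612), and in fasted mice by 2.72, 2.36 and 2.33.

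Glp1r, the receptor of the incretin GLP-1, was high in the ARC and the PVN. It was at 26.8, 38.2, 31.4, 31.4 and 34.3 RPKM in the fed ARC and between 20.4 and 52.0 (median 29.5) in the fed PVN, and these differed by 0.06 ± 0.39 with an interval of -0.74 to 0.86. In the fed DMH it was at 6.62, 15.5, 7.45, 17.0 and 13.8 RPKM, and in the fed VMH between 3.35 and 14.4 (median 5.96). Neither nucleus overlapped the ARC or the PVN. The VMH was lower than the ARC by 2.12 ± 0.39 (adjusted p = 0.000255) and lower than the PVN (-2.06 ± 0.38, 0.000166). The DMH difference was smaller, 1.43 ± 0.41 from the ARC (0.0629) and -1.38 ± 0.39 from the PVN (0.0507). The ARC to DMH call was lost in 6 of 10 fits that left out a library of either nucleus: ARC-Fed 2, 3, 4 or 5, or DMH-Fed 1 or 3, with adjusted p up to 0.176. The DMH to PVN call was lost without DMH-Fed 1 or 3 or PVN-Fed 5 or 6 (up to 0.169). The fed ARC to DMH call was also lost with a pseudocount of 0 (0.113) or 0.1 (0.105) and with the replicate block (0.101). In fasted mice both calls were lost without DMH-Fast library 4 (0.116 and 0.131) and in a fit on the fasted libraries alone (0.13 and 0.154).

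Htr2c, the serotonin receptor on which the appetite suppressant lorcaserin acts, was highest in the DMH and the PVN. It was at 8.62, 7.88, 10.2, 6.02 and 9.76 RPKM in the fed DMH and between 4.04 and 5.9 (median 5.06) in the fed PVN. In the fed ARC it was at 1.52, 2.96, 1.95, 2.31 and 2.01 RPKM and in the fed VMH between 1.37 and 3.61. The DMH exceeded the ARC by 1.59 (-1.59 ± 0.23 for ARC minus DMH, adjusted p = 2.48e-05) and the VMH (-1.39 ± 0.22 for VMH minus DMH, 4.29e-05). The PVN was also above both, with adjusted p of 0.0078 against the ARC and 0.0211 against the VMH. All fed DMH libraries were above all fed PVN libraries, yet this difference of 0.65 ± 0.22 did not pass (adjusted p = 0.136). It passed with array weights (0.0193) and in a fit on the fed libraries alone (0.0918). The Htr2c span on the X chromosome (146962513 to 147197277) holds several microRNA and small nucleolar RNA genes, which do not overlap its exons.

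Mchr1, through which melanin-concentrating hormone acts in rodents, varied least with nucleus in fed mice. Its fed means were 8.11 ± 2.53 RPKM in the PVN, 6.59 ± 3.59 in the VMH, 5.89 ± 3.29 in the ARC and 4.47 ± 1.52 in the DMH, with overlap between all 4 (adjusted p = 0.534). In fasted mice the PVN, at 8.56, 19.9, 17.6, 8.69 and 7.7 RPKM, lay above the DMH, at 2.48, 5.26, 3.54 and 1.89, by 1.61 (DMH minus PVN -1.61 ± 0.37, adjusted p = 0.00997). The fasted ARC was 1.24 ± 0.37 above the DMH (0.077). The ARC call was lost in 7 of 9 fits without a library of either nucleus, ARC-Fast 1, 3, 4 or 5 or DMH-Fast 1, 3 or 4, with adjusted p of 0.108 to 0.219. It was also lost in a fit on the fasted libraries alone (0.149) and with the replicate block (0.144).

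Ranked within a nucleus by RPKM, which compares genes only roughly, Npy1r, Npy2r, Glp1r and Mrap2 formed the top of the fed ARC with means of 30.6 to 37.6 RPKM. The other members lay between 1.98 and 10.9 RPKM there. Mrap2 had the highest mean of the 10 in each fed and fasted group of the VMH, DMH and PVN. In the PVN it was followed by Glp1r, and in the VMH by Npy1r and Mc3r. No member was above 46.7 RPKM in a library other than Glp1r, whose highest was 52.0 in PVN-Fed library 5.

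The next question was whether a 24-hour fast changed the receptors. No member passed the threshold in any nucleus, and none in the test of a different response between nuclei. Among all genes tested the share that passed was 0.0566% (ARC), 0.131% (VMH), 0.0238% (DMH) and 0.0715% (PVN), and 0.00596% for a response that differed between nuclei. With so few calls at this number of libraries, 0 of 10 does not set the receptors apart from other genes. At an unadjusted p under 0.05 the ARC had 1 member (7.5% of all genes), the VMH 0 (7.31%), the DMH 1 (6.48%) and the PVN 0 (5.53%). SEs of the 40 changes were 0.21 to 0.44 on the log2 scale, so the 95% intervals reached about a doubling or more for several genes and small changes could not be resolved. The members' median change was -0.21 (ARC), -0.03 (VMH), -0.11 (DMH) and -0.02 (PVN), beside a median of 0 for all genes to 2 decimals. That median takes in genes at their no-read value in fed and fasted libraries alike, so it is not that of expressed genes.

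**Figure D3:**
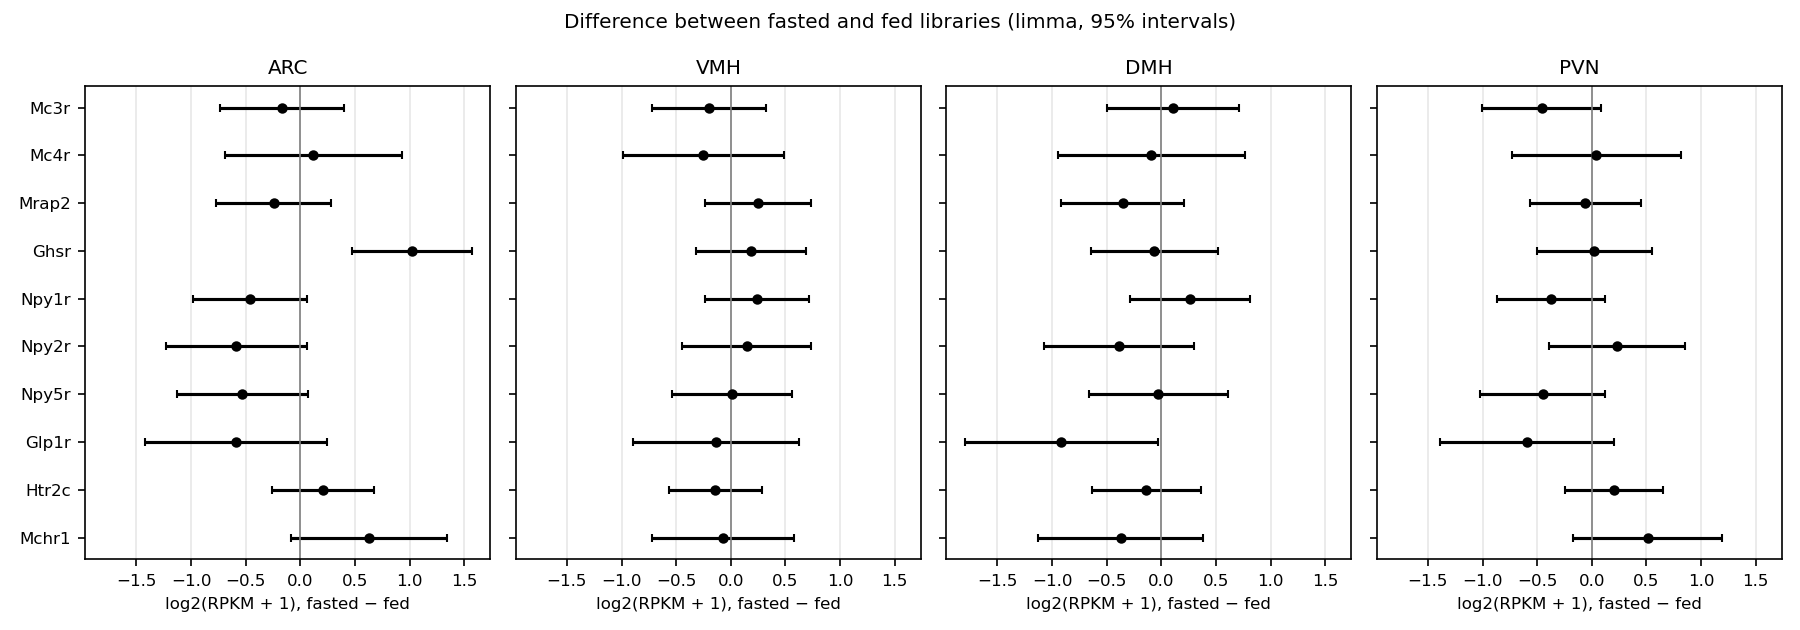
Change in log2(RPKM + 1), fasted minus fed, of each gene in each nucleus, with 95% intervals from limma. The intervals of Ghsr in the ARC (0.47 to 1.57) and Glp1r in the DMH (-1.8 to -0.03) leave out 0, and neither passed the threshold after adjustment.

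In the ARC the member with the largest difference was Ghsr. Fasted libraries were at 17.5, 8.45, 17.4, 14.4 and 12.2 RPKM, against 9.08, 4.08, 5.92, 5.66 and 7.01 in fed mice. All 5 fasted libraries were above the fed mean, and the groups overlapped only in that ARC-Fast library 2 lay below ARC-Fed library 1. The fasted mean was 13.98 ± 3.81 RPKM and the fed mean 6.35 ± 1.85, a ratio of 2.2. On the log2(RPKM + 1) scale the change was 1.022 ± 0.27 with a limma adjusted p of 0.263. The exact two-sided permutation test gave p = 0.0159, where 0.00794 is the smallest 5 against 5 libraries can give. Within the 3 sets into which the libraries fall, the change was 0.87, 1.15 and 0.96. Outside the ARC the change was 0.18, -0.06 and 0.02 in the VMH, DMH and PVN, and the test of a difference between nuclei gave an unadjusted p of 0.0299 and an adjusted p of 1. The PVN change was -1.01, 0.84 and 0.03 within the sets and includes PVN-Fed library 1 at 7.54 RPKM. Without that library the fed PVN mean was 1.29 RPKM, against 1.89 in fasted mice. VMH means were 0.982 RPKM in fed and 1.24 in fasted mice, a level at which the log2(RPKM + 1) scale understates changes.

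Npy1r, Npy2r, Npy5r and Glp1r had lower means in the fasted ARC. Npy1r was at 26.1, 28.1, 26.2, 23.4 and 30.8 RPKM, all below the lowest fed library at 32.0, with a mean of 26.9 ± 2.74 against 37.6 ± 5.3 RPKM. The change was -0.46 ± 0.26 (adjusted p = 0.748, exact permutation p = 0.00794, the smallest possible here) and was -0.52, -0.48 and -0.42 within the library sets. It was the only member whose ARC groups did not overlap, as was the case for 0.742% of all genes tested. Glp1r was at 17.7, 27.9, 14.6, 25.1 and 22.8 RPKM, all below the fed mean of 32.4, and only ARC-Fast library 2 was above the lowest fed library. Its change was -0.59 ± 0.41 (adjusted p = 0.903, exact permutation p = 0.0159). Npy2r was at 14.2, 21.5, 26.5, 23.5 and 33.6 RPKM, also below the fed mean of 36.0 in 5 of 5 libraries, but with overlap; its change was -0.59 ± 0.32 (adjusted p = 0.734, exact permutation p = 0.0714).

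Npy5r was at 2.75, 5.84, 5.13, 4.94 and 11.6 RPKM in the fasted ARC, a change of -0.53 ± 0.30 (adjusted p = 0.747, exact permutation p = 0.262). This rested on library set 1, where the fed library was at 19.4 and the fasted at 2.75 RPKM (-2.44); in the other sets the change was -0.09 and -0.03. Mchr1 was at 10.3, 5.17, 8.93, 8.18 and 12.3 RPKM in fasted and 10.3, 3.8, 2.3, 4.83 and 8.17 in fed mice, a change of 0.63 ± 0.35 (adjusted p = 0.75, exact permutation p = 0.111). Mc3r, Mc4r, Mrap2 and Htr2c changed by -0.17 ± 0.28, 0.12 ± 0.40, -0.25 ± 0.26 and 0.21 ± 0.23, with overlap between the groups. Summed markers of neurons (Snap25, Syt1, Rbfox3 and Tubb3) were at 424 to 479 RPKM in fed and 382 to 452 in fasted ARC libraries (exact permutation p = 0.0556). Singly, they changed by 0.003 ± 0.09, -0.18 ± 0.07, -0.23 ± 0.15 and -0.61 ± 0.17 in that order, none past the threshold. The part of these markers in the lower receptor values was not tested. Summed DMH markers were lower in the fasted ARC, at 6.07 to 16.9 RPKM against 16.0 to 34.3 in fed libraries (exact permutation p = 0.0397), and their part was not tested either. Of these markers, Ppp1r17 changed by -0.80 ± 0.26, Hcrt by -0.04 ± 0.38 and Pmch by -0.35 ± 0.45, none past the threshold. Summed markers of astrocytes, oligodendrocytes, microglia, endothelium and tanycytes overlapped between the ARC groups (exact permutation p of 0.262 to 0.968).

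**Figure D4:**
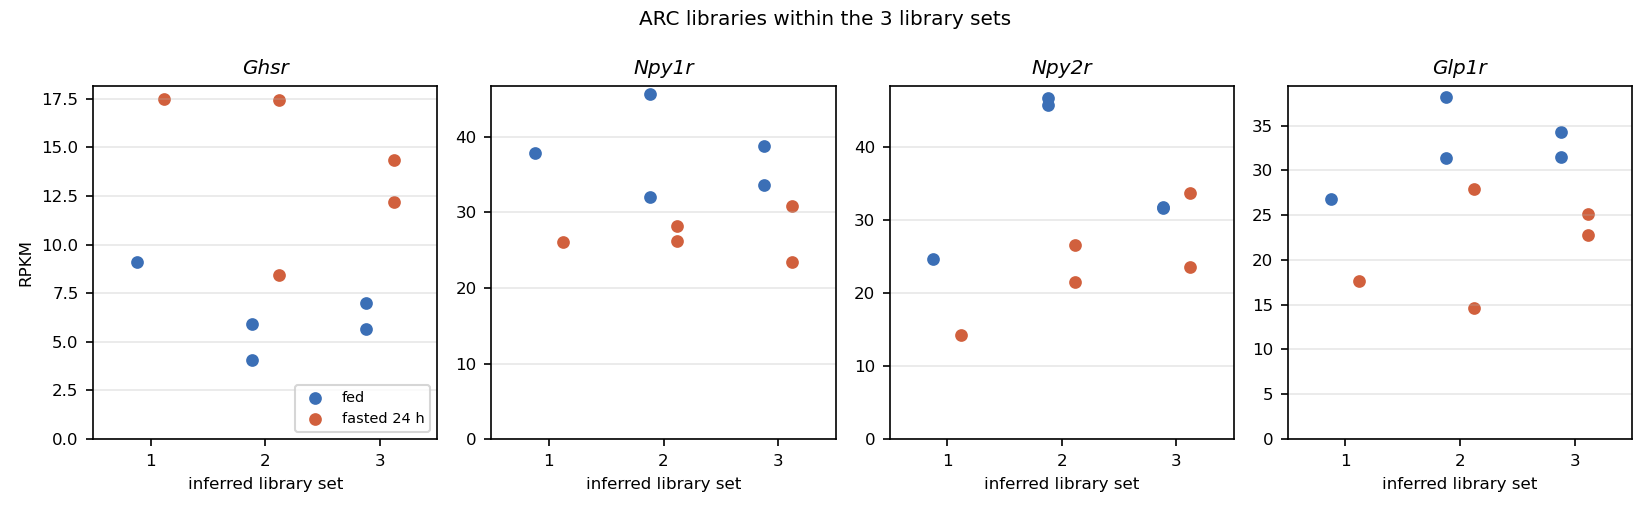
RPKM of Ghsr, Npy1r, Npy2r and Glp1r in the ARC libraries, fed (blue) and fasted (orange), within the 3 sets of libraries found from the table; each point is a library. In each set every fasted library is above the fed ones for Ghsr and below them for Npy1r and Glp1r, whereas Npy2r overlaps in set 3.

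In the DMH, Glp1r had the largest difference. It was at 10.03, 6.06, 6.37 and 2.16 RPKM in fasted mice, against 6.62, 15.5, 7.45, 17.0 and 13.8 in fed mice, so that the fasted libraries all lay below the fed mean while the groups overlapped. The change was -0.92 ± 0.44 (limma p = 0.043, adjusted p = 0.762, exact permutation p = 0.0794). Without DMH-Fast library 4 it was -0.57. Within library sets 2 and 3 it was -0.42 and -1.76, and set 1 held no fasted DMH library. Estimated depth was also higher in the fasted DMH, 4.78 to 13.2 M reads against 2.94 to 5.05 (exact permutation p = 0.0317), and the part of depth in this difference was not tested beyond a fit with depth as a covariate (closing section). No member's DMH groups were free of overlap, against 1.15% of all genes.

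In the PVN, Npy5r was at 1.1, 1.25, 1.16, 0.571 and 1.05 RPKM in fasted mice, below all 6 fed libraries, which ran from 1.34 through a median of 1.5 to 2.77. The change was -0.45 ± 0.28 (adjusted p = 1, exact permutation p = 0.00433, where 0.00216 is the smallest possible), and groups without overlap made up 0.402% of all genes. These values rest on 2.24 to 10.5 estimated reads in the fasted and 4.37 to 36.5 in the fed libraries. Glp1r was below the fed mean of 32.4 RPKM in 5 of 5 fasted PVN libraries, at 30.4, 8.49, 16.6, 23.4 and 32.2 RPKM (-0.59 ± 0.39, adjusted p = 1, exact permutation p = 0.145), with a change of 0.28, -1.07 and -0.70 within the sets. Mchr1 was higher on average in the fasted PVN (12.5 ± 5.81 against 8.11 ± 2.53 RPKM, change 0.51 ± 0.34, adjusted p = 1, exact permutation p = 0.136), by 0.07, 1.25 and 0.01 within the sets. Ppp1r17, a marker of the DMH, rose in the fasted PVN, from 12.3 to 28.0 RPKM in fed to 33.9 to 68.5 in fasted libraries (1.28 ± 0.25, adjusted p = 0.0345). The other DMH markers did not pass there: Hcrt changed by 0.03 ± 0.37 and Pmch by -0.52 ± 0.43. The part of the tissue captured in the PVN values was not tested.

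The VMH showed the smallest differences. Its 10 changes lay between -0.25 ± 0.36 for Mc4r and 0.25 ± 0.24 for Mrap2, 5 up and 5 down, with exact permutation p of 0.26 or more and overlap for each gene (0.277% of all genes did not overlap). Mrap2 and Npy1r were each highest in VMH-Fast library 2, at 46.6 and 25.6 RPKM, a library with an estimated 2.06 M reads. Aqp4, an astrocyte marker, fell in the fasted VMH (-0.94 ± 0.19, adjusted p = 0.0477), and the summed astrocyte markers had an exact permutation p of 0.0498. The other markers of that list did not pass: Gfap changed by -0.32 ± 0.31, Slc1a3 by -0.08 ± 0.10 and Aldh1l1 by 0.39 ± 0.24. The part of astrocyte RNA in the VMH values was not tested.

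The ligands give the other side of these pathways. Of 15 ligand and enzyme genes listed, 12 were tested, and in the ARC 1 rose past the threshold and 0 fell (median change 0.03). It was Agrp, the antagonist of Mc3r and Mc4r, which was at 179, 157, 110, 116 and 105 RPKM in fed and at 351, 403, 341, 597 and 351 in fasted mice. The groups did not overlap and the change was 1.61 ± 0.33 (adjusted p = 0.0613), but the call was lost in 6 of the 10 fits without an ARC library (adjusted p up to 0.15: without ARC-Fast 1 or 4 or ARC-Fed 2, 3, 4 or 5) and in a fit on the ARC libraries alone (0.28). Npy was at 345 ± 65.8 RPKM in fed and 913 ± 356 in fasted mice (1.33 ± 0.44, adjusted p = 0.464) and Pomc at 518 ± 79.2 and 365 ± 70.7 RPKM (-0.51 ± 0.30, adjusted p = 0.77), neither past the threshold. The Npy groups did not overlap either, at 284 to 453 RPKM in fed and 591 to 1428 in fasted libraries. In the ARC 0.742% of all genes tested had groups without overlap. Pmch, which encodes the ligand of Mchr1, was found mainly in the DMH libraries, at 420 ± 327 RPKM in fed and 355 ± 125 in fasted mice (-0.07 ± 0.47). In the VMH, DMH and PVN none of the 12 passed.

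Other receptors were described by the same counts. Of 22 other members of the same receptor families, 19 were tested and 0 passed in any nucleus (median change 0.02 in the ARC). A further list held 26 receptors of feeding hormones and peptides, with the Ramp accessory proteins among them. Of these, 25 were tested, and in the ARC 1 rose and 0 fell, with a median of 0.11. It was Lepr, the leptin receptor, at 3.36, 2.94, 2.74, 3.32 and 3.51 RPKM in fed and 14.01, 9.03, 5.8, 9.34 and 7.25 in fasted mice, a change of 1.22 ± 0.17 (adjusted p = 0.000651). Lepr passed in each fit without a library and lost the call in the fit on the ARC alone (adjusted p = 0.391). Of 18 G proteins, adenylate cyclases, arrestins and related genes, 18 were tested and 0 passed in any nucleus. Between fed nuclei, 8 of the 12 ligand and enzyme genes and 4 of the 19 family receptors differed. So did 15 of the 25 genes on the further list and 8 of the 18 signalling genes, against 12.4% of all genes tested. Among the 8 members that differed between fed nuclei, the ARC held the highest mean of 4, the VMH of 1, the DMH of 1 and the PVN of 2. Near ties enter this count: Mc3r was at 11.3 RPKM in the VMH and 10.9 in the ARC, and at 9.08 in the VMH without VMH-Fed library 4, and Glp1r had almost equal means in the PVN and the ARC. Of all 4172 genes that differed, 933 were highest in the ARC.

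To describe which genes each member resembled, its log2(RPKM + 1) values over the 42 libraries were correlated with those of 13745 genes. The libraries share nuclei, depth and library sets, so these values describe a common distribution. The 3 genes most like Ghsr were Agrp (Pearson r = 0.91), the T-box factor Tbx3 (0.88) and Crabp1 (0.88). For Npy1r they were Pomc (0.84), the prolactin receptor Prlr (0.78) and Tbx3 (0.77), and for Npy5r they were its neighbour Npy1r (0.84), Pomc (0.83) and Hs2st1 (0.79). For Npy2r they were Rasgrp1 (0.86), the insulin receptor substrate Irs4 (0.85) and Crabp1 (0.85). Mc3r was most like Deptor (0.87), 6330403K07Rik (0.84) and Add3 (0.84), Glp1r most like Ctsz (0.80), Stk32a (0.79) and As3mt (0.79), and Htr2c most like Cbln2 (0.83), with Tenm1 at 0.77. The values were lower for Mrap2 (E2f6 at 0.78, Manf at 0.73), Mc4r (Fam174b 0.65, Dst 0.63, Hipk2 0.62) and Mchr1 (Arfgap3 0.65, Nucb2 0.58, Stxbp5 0.57).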

How the data were processed

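RNA from laser-captured ARC, VMH, DMH and PVN was amplified (Ovation RNA-Seq V2) and sequenced as unstranded single-end reads. Per the submitters' processing notes and the study's methods, the authors used CASAVA 1.7, TopHat2 2.0.11, Cufflinks 2.2.1, edgeR and limma with GRCm38, and removed outlier libraries by multidimensional scaling. The deposited values are RPKM for 37907 genes in 42 libraries, and all libraries were grouped by their titles. The methods describe 3 batches of capture that the labels do not name. Here 3 library sets of 10, 16 and 16 were found from recurring lowest values, which are taken as genes without reads. From these, the added count (1.46 to 14.5 reads, mean 5) and the depth (mean 4.57 M reads) were estimated, using GENCODE M21 exon lengths. For 75.4% of 20367 genes the recurring value matched exon length within 1%. A depth-scaled count and the removal of set means are read from the values and are not stated in the sources used here.

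The study's count model was replaced by limma 3.58.1 (R 4.3.3) on log2(RPKM + 1), which understates changes of low genes. Genes with at least 1 RPKM in at least 4 libraries were kept (33579, with all 10 members), and 8 group means were fitted with an intensity trend. Through the added count, a short gene without reads can lie above 1 RPKM and pass this filter. Ppy, for example, was tested with all ARC libraries between 2.03 and 2.27 RPKM. Each share over all genes tested therefore includes such genes. The spread of a gene was pooled over the 8 groups, so a limma SE or p in a nucleus does not rest on its own libraries alone. Two-sided p-values were adjusted over all genes by Benjamini-Hochberg (threshold 0.1). Each adjusted p is from limma. Each member also had a two-sided exact permutation test in each nucleus (40 tests, unadjusted). Scripts were tested on simulated data. The members, gene lists and tests were chosen with earlier results of these data known. All members are named; other listed genes are named if past the threshold with fasting, or as Pomc, Agrp, Npy or Pmch, and resembling genes are the 3 with the highest r among genes of mean 5 RPKM or more, of which some are not reported here. Ppp1r17 and Aqp4 were named after their values were seen, and the other markers of their lists were then given beside them. Alternatives were other pseudocounts and filters, quantile normalization, array weights, covariates, smaller fits, and leaving out each library. Sequences are from RefSeq (GRCm38.p6).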

Additional observations from a re-analysis of the deposited data

Results flagged for a closer look

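In 8 of the 80 groups of a gene's values, a library stood apart from the others by Dixon's test at 95%; about 1 in 20 groups (4 of 80) is expected by chance. Ghsr in PVN-Fed library 1 was at 7.54 RPKM, where the other 5 libraries lay between 0.685 and 2.29, and the group mean fell from 2.33 to 1.29 RPKM without it. Mc4r in DMH-Fast library 4, the deepest library at an estimated 13.2 M reads, was at 3.89 RPKM against 0.443 to 0.869 in the other 3, and the mean was 1.5 RPKM with and 0.706 without it. Without this library, Mc4r differed between fasted nuclei (adjusted p = 0.0737). Mc4r in PVN-Fast library 2 was at 8.01 RPKM (others 2.32 to 3.52). Mrap2 and Npy1r in VMH-Fast library 2 were at 46.6 RPKM (others 14.2 to 19.9) and 25.6 RPKM (others 9.45 to 12.8). Mrap2 in DMH-Fast library 2 was low, at 13.7 RPKM (others 22.3 to 23.6). Mc3r in VMH-Fed library 4 was at 22.4 RPKM (others 7.2 to 11.2), and Htr2c in DMH-Fast library 1 was at 9.88 RPKM (others 6.61 to 7.03).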

How the results depend on the processing

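No member passed the threshold with fasting, or in the test of a different response between nuclei, under any alternative run, including each fit without a library. The count of members that differed between nuclei was 8 to 9 in both states, and the count of pairwise differences was 26 to 30 in fed and 24 to 30 in fasted mice. Within a nucleus, fed and fasted libraries of the same number did not deviate together (correlations of -0.121 to 0.054), and numbers shared between nuclei were not checked. With the library number as a block (the replicate block), 27 fed and 26 fasted pairwise differences passed and 0 members changed with fasting. The number is not a mouse label, so this fit cannot account for nuclei taken from the same mouse. For Ghsr in the ARC the adjusted p ranged from 0.138 to 0.691 over the alternatives and its change from 0.87 to 1.18. For Glp1r in the DMH, with estimated depth as a covariate the change was -0.961.

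Several small ARC changes turned sign. Without a library, Mc3r ranged from -0.292 to 0.00758 and Mc4r from -0.155 to 0.344. With array weights Mc4r was at -0.0298. Within a library set the sign turned for Mc3r (0.165, set 3), Mc4r (-0.25, set 1), Mrap2 (0.0786, set 3), Htr2c (-0.325, set 2) and Mchr1 (-0.000306, set 1) in the ARC and for Glp1r in the PVN (0.281, set 1). The causes were not tested. Of the other 26 changes, 20 turned sign in at least 1 of 607 values computed, 67 in all. Agrp also lost its call with a pseudocount of 0 (adjusted p = 0.228) or 0.1 (0.218); its alternatives and those of Lepr were chosen after seeing the data. With the median in place of the mean, 80 of 80 group levels moved by less than 1 SD; above the expected no-read value, chosen after seeing the data, 77 did. Subtracting a no-read value read from the table was not run, as none could be read for the members.

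Depth limits Mc4r and Npy5r most, with fewer than 10 estimated reads in 16 of 42 libraries each. Amplification of little RNA adds spread that these values do not separate from that between mice.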
